A study of Homo sapiens with 6 samples.

Results

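The transcripts described here encode the catalytic subunits of the serine/threonine protein phosphatases PP1 (PPP1CA, PPP1CB and PPP1CC), PP2A (PPP2CA and PPP2CB), PP4 (PPP4C) and PP6 (PPP6C), and the PP2A scaffold PPP2R1A. The members were listed by name, and the RefSeq transcript of each was taken from the data, which gave 8 of the 15739 transcripts in the files, 1 for each gene. PPP1CA and PPP2CB were chosen by measured values: RT stops at G in their 5′ UTRs that differ between the libraries reverse transcribed in different cations. These stops are therefore described without a test.

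PP1 and PP2A remove phosphate groups from serine and threonine residues of a large number of proteins, and most of their specificity comes from the regulatory subunits that bind the catalytic subunit. Runs of G in RNA can fold into G-quadruplexes (rG4s), stacks of G quartets that are held best by K+, less well by Na+ and poorly by Li+, and at which reverse transcriptase (RT) halts.

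The data came from U2OS, a human osteosarcoma cell line, whose poly(A)-selected RNA was fragmented and copied from an adapter at its 3′ end. Each cDNA end marks an RT stop. There were 6 libraries, 1 for each condition: RNA not treated with dimethyl sulfate (DMS) and reverse transcribed in 150 mM Na+ or in 150 mM K+, RNA refolded and modified with DMS in vitro in 150 mM K+ or Li+, and RNA modified inside living cells with 8% DMS for 5 min, either unstressed or starved for 2 h in Hank's balanced salt solution. The DMS-treated libraries were reverse transcribed in 150 mM K+. DMS methylates A and C that are not base paired, which stops RT there, and the N7 of G that is not in a quartet. With 1 library per condition no difference between conditions has a replicate check, no test was made, and all 95% intervals cover counting error only.

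For the libraries without DMS, the cation in the sample label and the cation in the name of the deposited file contradict each other, so they are called here the library labelled Na+ and the library labelled K+. The labels and the results text of the study name Na+ beside K+ for this reverse transcription, whereas its methods name Li+, so which salt the library labelled Na+ held is uncertain. Across the 3673 transcripts with 1 or more stops per nucleotide in both of these libraries, 2340 regions of stops at G were stronger in the library labelled Na+ and 241 in the library labelled K+. The listed stops ranged from 12999691 in unstressed cells to 35371061 in the library labelled K+. Of 12 marker genes 6 were matched. The mesenchymal marker COL1A2, the epithelial markers CDH1, KRT5 and KRT14 and the blood markers PTPRC and CD74 were not, so they have no value here. The mesenchymal markers VIM, SPARC, COL1A1 and FN1 had 1120 to 1327, 80.5 to 260.2, 30.5 to 108.6 and 10.1 to 46.0 RPM per kb in the 6 libraries (RPM, stops per 1000000 stops of all matched transcripts). The epithelial marker EPCAM had 3.17 to 6.03 and the red blood cell marker HBB 1.80 to 12.6. The lowest values of all these markers but EPCAM were those of starved cells. From unstressed to starved cells SPARC went from 260.2 to 80.5, COL1A1 from 108.5 to 30.5, FN1 from 28.7 to 10.1 and HBB from 5.03 to 1.80. The phosphatase transcripts were 1342 to 4728 nt long, and between 552 (PPP4C, starved) and 18292 (PPP1CB, labelled K+) stops were listed for them in a library. Windows of 20 nt were shared with another gene in 0.144% (PPP6C) to 0.977% (PPP2CB) of positions and windows of 45 nt in none. For cDNAs of at least 20 nt, few stops can thus have been lost or exchanged between the paralogs. Reads were not assigned to isoforms.

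The 5′ UTRs of these mRNAs had a GC content of 60.0% (PPP2R1A) to 82.9% (PPP1CA). The following 30-nt windows end at the strongest stop at G of each region described below, 5′ to 3′ on the transcript strand, with runs of at least 2 G in capitals. They are shown because RT halted at their last base. The window of PPP2CB is not printed. It held 6 runs of at least 2 G, 5 of them of at least 3.
PPP1CA, 5′ UTR, chr11:67169288-67169317 (GRCh37/hg19, minus strand): GGctgccGGaGGGcGGGaGGcaGGagcGGG
PPP1CC, 5′ UTR, upstream region, chr12:111180637-111180666 (GRCh37/hg19, minus strand): GGaagtaGGGagcGGGGtGGcaGGGGGGGG
PPP1CC, 5′ UTR, region at the start codon, chr12:111180519-111180548 (GRCh37/hg19, minus strand): cGGcgccgctgcGGGaGGGtcGGcGGtGGG
PPP2CA, 5′ UTR, weaker stop, chr5:133561557-133561586 (GRCh37/hg19, minus strand): cgcGGagcGGcagccGGctGGGGcGGGtGG
PPP4C, 3′ UTR, weaker stop, chr16:30096447-30096476 (GRCh37/hg19, plus strand): tcctcagacGGaGGctGGGcgtGGGGGGGG
PPP2R1A, 3′ UTR, weaker stop, chr19:52729442-52729471 (GRCh37/hg19, plus strand): tGGacaGGacagtgaccttGGGaGGaaGGG

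The question of the pair without DMS was where RT stops at G depend on the cation. The RT-stop enrichment score (E) is the stop count of a nucleotide over the mean stop count of its transcript. Stops at G with an E of at least 10 in one library and at least 2-fold that in the other were counted, and those within 30 nt were merged into 1 region. Both libraries had to have 1 or more stops per nucleotide on average, which held for 7 of the 8 transcripts. The exception was PPP6C, with a mean of 0.814 in the library labelled Na+. In the library labelled Na+, 4 regions with 6 stops were stronger, in 3 of these transcripts, beside 37.9% of all 3673 transcripts tested. All 4 lay in 5′ UTRs, in PPP1CA, PPP1CC (2 regions) and PPP2CB. Since PPP1CA and PPP2CB were chosen by such 5′ UTR stops, nothing is read from this location. Of the 2340 regions in all transcripts tested, 13.8% were in 5′ UTRs and 54.6% in 3′ UTRs. In the opposite direction there was no such region in these transcripts, beside 5.01% of all transcripts.

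PPP1CA encodes the alpha isoform of the PP1 catalytic subunit. Its stop lay 35 nt before the start codon, in RefSeq sequence upstream of the start of the matched GENCODE transcript. It had 180 stops in the library labelled Na+ and fewer than 3, the lowest count listed, in the library labelled K+. The E was 32.5 against less than 0.54, at least 60.2-fold higher. The next base upstream had 76 stops against fewer than 3, and an E of 13.7. Among all regions the E of PPP1CA stood at percentile 59.3.

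PPP1CC encodes the gamma isoform, and both of its regions lay in exon 1 of 8. The region at the start codon, 7 nt upstream of it, had the highest E of these transcripts. It had 495 stops in the library labelled Na+ and 6 in the library labelled K+, an E of 59.4 against 0.72, which was 82.8-fold higher (interval 37.8 to 226.8). The neighbouring base, 8 nt before the start codon, had 158 stops against fewer than 3. The upstream region, 125 nt before the start codon, had 145 stops against 4 and an E of 17.4 against 0.48, a 36.4-fold difference (interval 13.9 to 135.4). It ended in an unbroken run of 8 G. These regions stood at percentiles 76.8 and 33.8 of all regions.

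PPP2CB encodes the beta isoform of the PP2A catalytic subunit. Its stop, 219 nt before the start codon in exon 1 of 7, had 84 stops in the library labelled Na+ and 5 in the library labelled K+. The E was 22.2 against 1.23, an 18.1-fold difference (interval 7.45 to 57.2). It stood at percentile 45.3 of all regions.

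The stops nearest to the threshold of 10 were, on the inside, PPP1CA (13.7, the second base of its region) and PPP1CC (17.4), and on the outside PPP4C (9.39) and the base after the PPP2CB stop (9.27). PPP4C, the PP4 catalytic subunit, had 28 stops against fewer than 3 in its 3′ UTR, 93 nt after the stop codon, in exon 9 of 9. With the threshold lowered to an E of 5, PPP2CA, the alpha isoform of the PP2A catalytic subunit, also had stops just upstream of the start codon. The stop 5 nt before it had 49 counts against fewer than 3 (E 8.80) and that 8 nt before it had 32 against fewer than 3 (E 5.75). PPP2R1A, the scaffold to which the catalytic and regulatory subunits of PP2A bind, had 30 stops against 10 in its last exon, 237 nt after the stop codon (E 6.89 against 2.26). PPP1CC had a further stop inside the coding sequence, 6 nt downstream of the first base of the start codon, with 69 counts against 4 (E 8.28 against 0.48). So PPP1CC and PPP2CA had stops in the last 10 nt before the start codon, and in PPP1CA and PPP2CB they were further upstream.

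**Figure D1:**
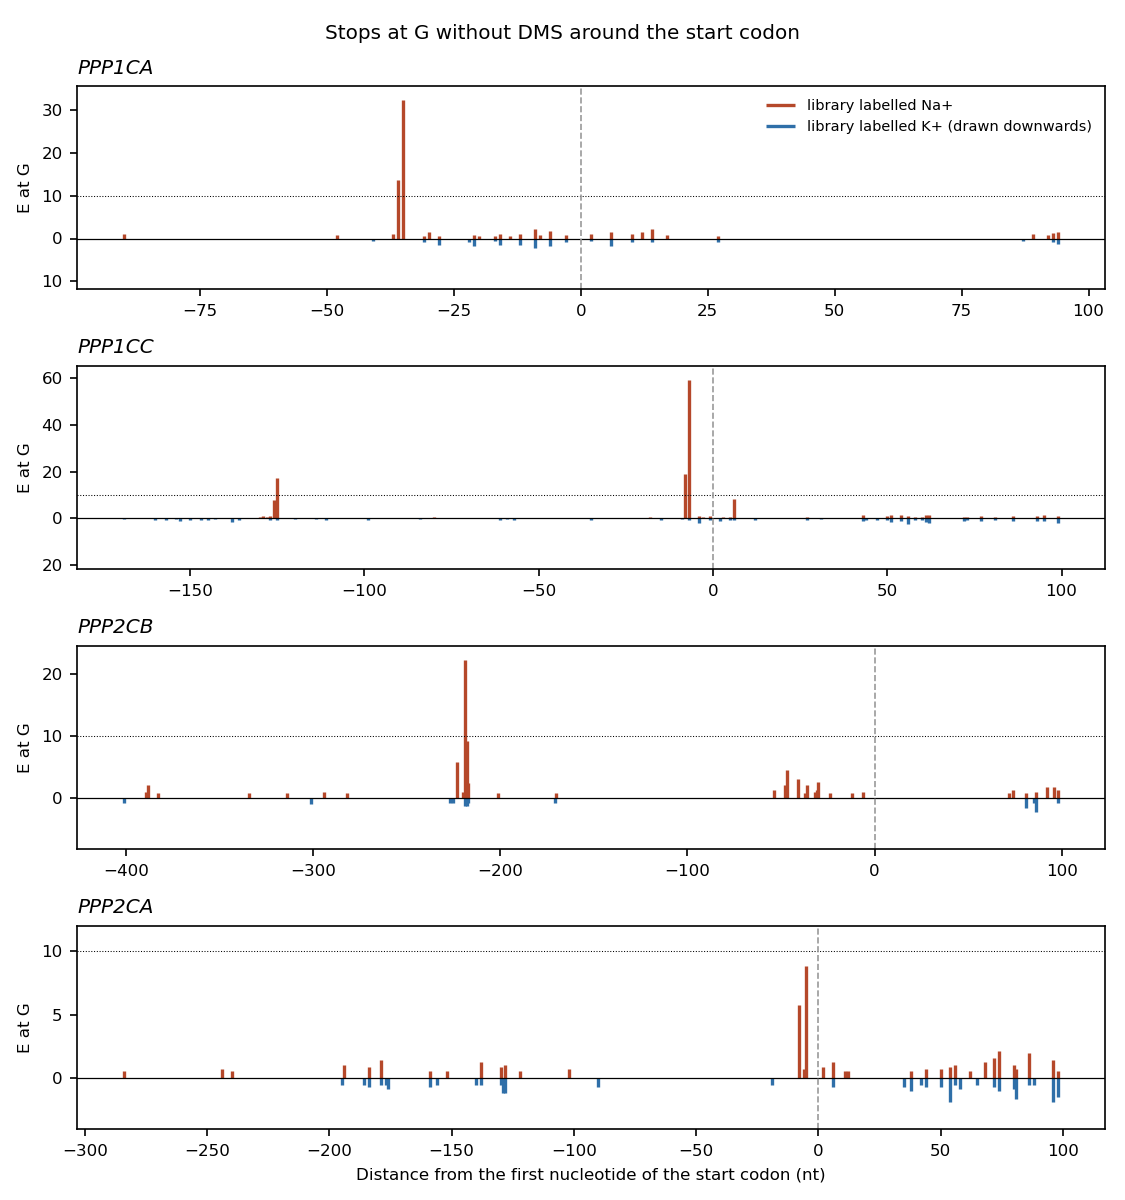
E of each stop at G (y axis, no unit) in the 2 libraries without DMS, by its distance from the first nucleotide of the start codon (x axis, nt), with the library labelled K+ drawn downwards and the threshold of 10 dotted. The bars past the threshold at 35 nt (PPP1CA), 125 and 7 nt (PPP1CC) and 219 nt (PPP2CB) before the start codon stand against an E of 1.23 or less at the same positions in the library labelled K+, and the bars of PPP2CA stay under 10.

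In the other direction, at an E of 5 there were 5 weak stops at G that were stronger in the library labelled K+, all in the 3′ UTRs of PPP1CB and PPP4C, with 16 to 30 counts against 5 to 13. For 1 of these, in PPP4C (18 against 8), the interval of the ratio of E, labelled Na+ over labelled K+, includes 1 (0.17 to 1.1). In the library labelled K+ PPP6C, the PP6 catalytic subunit, had 11 stops against 3 at a G in its 5′ UTR, 16 nt before the start codon, and 10 against 3 at a G in the coding sequence. The intervals of the ratio (0.053 to 1.11 and 0.057 to 1.26) include 1, so no direction was detectable. These are values from a transcript under the minimum. PPP1CB, the third PP1 catalytic isoform, had no stop at G past an E of 7.77 in the library labelled Na+.

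The stops at G were counted by region of the transcript as well, over all listed positions. In the 5′ UTR of PPP1CC, 936 of 1006 listed stops (93.0%) were at G in the library labelled Na+ and 135 of 249 (54.2%) in the library labelled K+. In PPP2CB these were 270 of 311 (86.8%) and 29 of 69 (42.0%), in PPP1CA 344 of 450 (76.4%) and 77 of 161 (47.8%), and in PPP2CA 145 of 267 (54.3%) and 58 of 204 (28.4%). PPP2R1A, without a region in its 5′ UTR, had 34 of 96 and 34 of 84. PPP4C had 26 of 33 and 31 of 45. Over the whole coding sequence, which includes the PPP1CC stop 6 nt into it, 24.7% of the stops of PPP1CC were at G in the library labelled Na+ and 25.0% in the library labelled K+, with 27.8% and 27.0% in PPP1CA and 23.8% and 22.2% in PPP2CB. The 5′ UTR itself held 7.63% of the listed stops of PPP1CC in the library labelled Na+ (interval 7.19 to 8.10) and 1.88% in the library labelled K+ (1.66 to 2.12).

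Apart from the base G, the sequence was not used to choose the stops. A 3-G motif, made of 4 G runs of 3 or more with loops of 1 to 7 nt, was searched on the transcript strand in the 5′ UTR, coding sequence and 3′ UTR of each transcript. It was found in the 5′ UTRs of PPP1CA (1), PPP1CC (1) and PPP2CB (3), and nowhere else in these mRNAs. The match is by transcript and not by position. The 30-nt windows of PPP2CB and of the upstream PPP1CC region held the motif, and those of PPP1CA and of the PPP1CC region at the start codon, the strongest stop, did not. In PPP1CA the motif ended 55 nt and in PPP1CC 118 nt upstream of these stops. Of 3584 transcripts, 9.18% held it in the 5′ UTR, 3.99% in the coding sequence and 10.4% in the 3′ UTR. PPP2CA, PPP4C, PPP2R1A and PPP1CB held only the looser 2-G motif (4 G runs of 2 or more, loops of 1 to 9 nt) in the 5′ UTR, which 71.3% of all 5′ UTRs held. PPP6C had neither in its 5′ UTR.

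The in vitro libraries compared the same RNA folded and modified in K+ or Li+, both reverse transcribed in K+. At the PPP1CA stop there were 13 stops in K+ and 6 in Li+ (E 3.40 and 1.15), a ratio of 2.95 (interval 1.05 to 9.46). PPP2CB had 15 and 6 (E 5.86 and 1.80), a ratio of 3.26 (1.20 to 10.3). At both PPP1CC stops the counts were 10 in K+ and 11 in Li+, and the interval of the ratio of E (0.47 to 3.23) includes 1. At these single bases the intervals of PPP1CA and PPP2CB thus lay above 1, and for PPP1CC neither direction was detectable at this depth. Neighbouring bases of PPP2CB did not all share the direction. The G 4 nt upstream of its stop had fewer than 3 counts in K+ and 8 in Li+, the next base downstream had 4 in K+ and fewer than 3 in Li+, and the one after it fewer than 3 in K+ and 5 in Li+. Over the whole 5′ UTR of PPP2CB, 22 of 67 listed stops (32.8%) were at G in K+ and 47 of 131 (35.9%) in Li+. These were 45 of 88 (51.1%) and 46 of 119 (38.7%) in PPP1CA, and 70 of 169 (41.4%) and 116 of 267 (43.4%) in PPP1CC. The median log2 ratio (with 1 count added) was 0.89 over the 4 regions, 0.42 over the 1588 regions listed in all transcripts and 0.42 over the 197 of these in 5′ UTRs. At the PPP2CA stop 5 nt before the start codon, no count was listed in either library.

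In cells, hardly any RT stop was listed at these positions. In unstressed cells none of the 4 stops was listed, so that each had fewer than 3 counts, an E below 0.86 in PPP1CA, 1.24 in PPP1CC and 1.90 in PPP2CB. In starved cells the PPP1CC stop at the start codon had 7 counts and the other 3 stops fewer than 3. With the count in unstressed cells at the limit of 3, the ratio of E for PPP1CC was at least 0.95, which gives no direction. Of all 323 regions in 5′ UTRs, 6.19% had a listed stop in unstressed and 18.0% in starved cells, compared to 35.1% and 51.9% of the 1277 regions in 3′ UTRs. A stop is listed from 3 counts on, and the starved library held 24014417 listed stops against 12999691 in unstressed cells, so these shares cannot be compared directly. Relative to the transcript mean, the median log2 ratio of E (with 1 count added), starved over unstressed, was 1.57 over the 1041 regions listed in at least 1 of these libraries and 1.05 over the 62 of these in 5′ UTRs. The only such value in these transcripts was that of the PPP1CC stop, 1.70, in which the count not listed in unstressed cells was taken as 0. In the whole 5′ UTR of PPP1CC, 36 of 54 listed stops were at G in starved cells and 0 of 15 in unstressed cells, in which the transcript had a mean of 5.93 and 2.41 stops per nucleotide. PPP4C had 6 of 18 at G in unstressed cells and no listed stop in starved cells, and the other 6 transcripts had no listed stop at G in the 5′ UTR in either in vivo library.

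The second question was how much of each transcript was measured in each condition. The share of a transcript is its RT stops per 1000000 stops of all matched transcripts (RPM). Such shares are relative, and in bulk samples fewer cells with a transcript and less of it per cell cannot be told apart. Outside cells the shares hardly differed within each pair: over the 8 transcripts, the largest difference on the log2 scale was 0.07 between the libraries without DMS and 0.06 between those in vitro. Across all 4 libraries PPP2R1A differed by more, from 242.8 RPM in the library labelled K+ to 276.8 in vitro in Li+. Per length, PPP1CC was the highest (180.3 to 188.8 RPM per kb in these 4 libraries), followed by PPP1CA (120.7 to 128.9) and PPP2CA (124.2 to 130.0), whose order changed between libraries. PPP2R1A (96.0 to 109.4) came next, then PPP1CB (84.6 to 91.9) and PPP2CB (82.8 to 88.2), whose order also changed, PPP4C (66.5 to 72.5) and PPP6C (18.2 to 19.1).

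**Figure D2:**
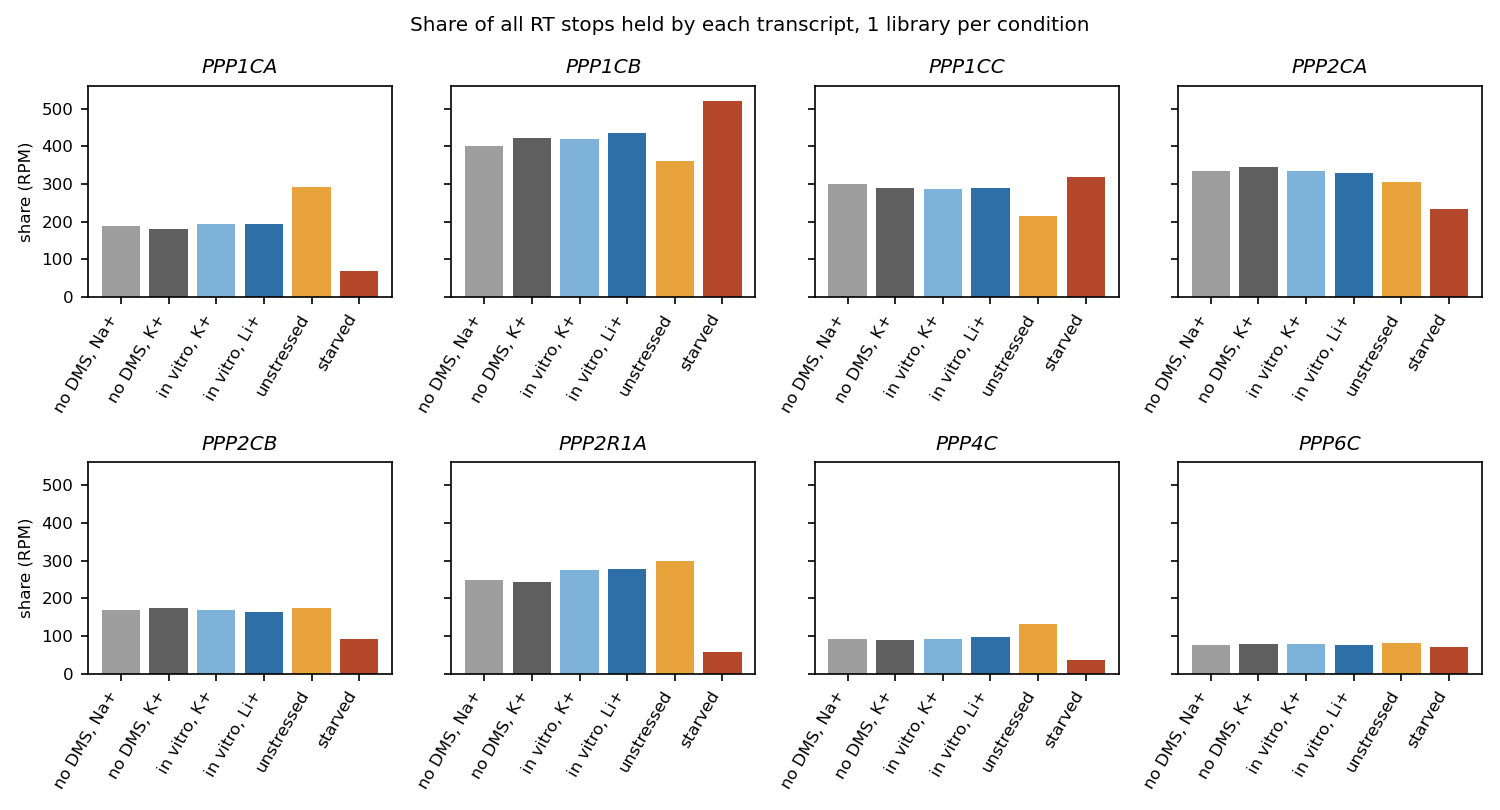
Share of each transcript in RPM, its RT stops per 1000000 stops of all matched transcripts (y axis, from 0), in the 6 libraries (x axis), 1 bar for each library and no replicates. The 4 libraries made outside cells are nearly level within each transcript, whereas PPP1CA, PPP2R1A and PPP4C have 292.8, 298.1 and 131.8 RPM in unstressed cells and 68.9, 57.0 and 34.9 in starved cells.

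Between unstressed and starved cells the shares differed more. The share of PPP2R1A was 298.1 RPM in unstressed and 57.0 in starved cells, 5.23-fold lower (ratio 0.191, interval 0.177 to 0.206). PPP1CA had 292.8 and 68.9, 4.25-fold lower (ratio 0.235, interval 0.221 to 0.25), and PPP4C 131.8 and 34.9, 3.78-fold lower (ratio 0.265, interval 0.241 to 0.291). PPP2CB had 173.5 and 91.9, 1.89-fold lower (ratio 0.530, interval 0.499 to 0.562). These 4 transcripts were at least 1.5-fold lower in starved cells, beside 39.6% of the 4313 transcripts that had 0.25 or more stops per nucleotide in both libraries. The intervals do not cover the choice of measure. Over listed stops only, the ratios of PPP2R1A, PPP1CA, PPP4C and PPP2CB were 0.0997, 0.155, 0.147 and 0.446, each below its interval. Over stops at U and G only, they were 0.218, 0.216, 0.272 and 0.570.

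PPP1CC and PPP1CB had higher shares in starved cells, 319.5 against 214.9 (ratio 1.49, interval 1.43 to 1.55) and 518.9 against 361.6 (ratio 1.43, interval 1.39 to 1.48). None of the transcripts was at least 1.5-fold higher, beside 22.0% of all. PPP2CA (232.8 against 304.6, ratio 0.764) and PPP6C (70.2 against 81.6, ratio 0.861) were lower by less than 1.5-fold. So the isoforms of the PP1 catalytic subunit differed in both directions, with PPP1CA lower and PPP1CB and PPP1CC higher, and both PP2A isoforms were lower, PPP2CB by more than PPP2CA. The median log2 ratio was -0.65 over these transcripts and -0.24 over all 4313.

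Relative to the library labelled K+ without DMS, the log2 share of PPP1CA was 0.69 in unstressed and -1.40 in starved cells, that of PPP4C 0.56 and -1.35, and that of PPP2R1A 0.30 and -2.09. For PPP1CC these were -0.43 and 0.14, and for PPP1CB -0.22 and 0.30. PPP2CB was at 0.00 and -0.91 and PPP6C at 0.03 and -0.18, and PPP2CA was below the library without DMS in both, at -0.18 and -0.57. By sign alone the in vivo libraries thus stood on opposite sides of it in 7 of 8 transcripts, beside 55.0% of all 4313. The median over all transcripts had opposite signs as well in each of 10 bins of GC content. It was -0.51 in unstressed and 0.28 in starved cells in the bin of PPP1CB, the lowest in GC, and 0.63 and -0.71 in the bin of PPP1CA and PPP2R1A. The order per length in unstressed cells was led by PPP1CA (195.1 RPM per kb) and PPP1CC (134.9), and in starved cells by PPP1CC (200.6) and PPP1CB (109.8), with PPP1CA at 45.9.

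The share ratio followed the GC content of a transcript: across all 4313 transcripts, which share both libraries and are not independent replicates, Pearson's r of GC content and log2 ratio was -0.76. The 3 transcripts with the lowest ratios were the most GC-rich (PPP1CA 60.0%, PPP2R1A 58.6% and PPP4C 57.1%), and PPP1CB, one of the 2 with a higher share, was the least (35.1%). Others did not follow this order: PPP6C (38.6%) and PPP2CA (43.4%) had lower shares in starved cells, and PPP1CC, with the highest ratio, had 45.8%. Because of the trend over all transcripts, each ratio was also set beside the median of its GC bin. These were 10 bins of equal size in which all transcripts were sorted by GC content. PPP2R1A was still 1.05 lower on the log2 scale than its bin, PPP6C 0.99, PPP4C 0.86, PPP2CB 0.83, PPP1CA 0.75, PPP2CA 0.73 and PPP1CB 0.26, and PPP1CC was 0.38 higher. That is 7 of 8 below the median of their bin, 6 of them by at least 1.5-fold, beside 49.9% and 17.3% of all transcripts. PPP2R1A, PPP6C, PPP2CA and PPP2CB stood at percentiles 3.25, 3.70, 6.96 and 9.26 of their bins, and PPP1CC at 69.8. How far GC content contributes to the ratios was not tested.

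**Figure D3:**
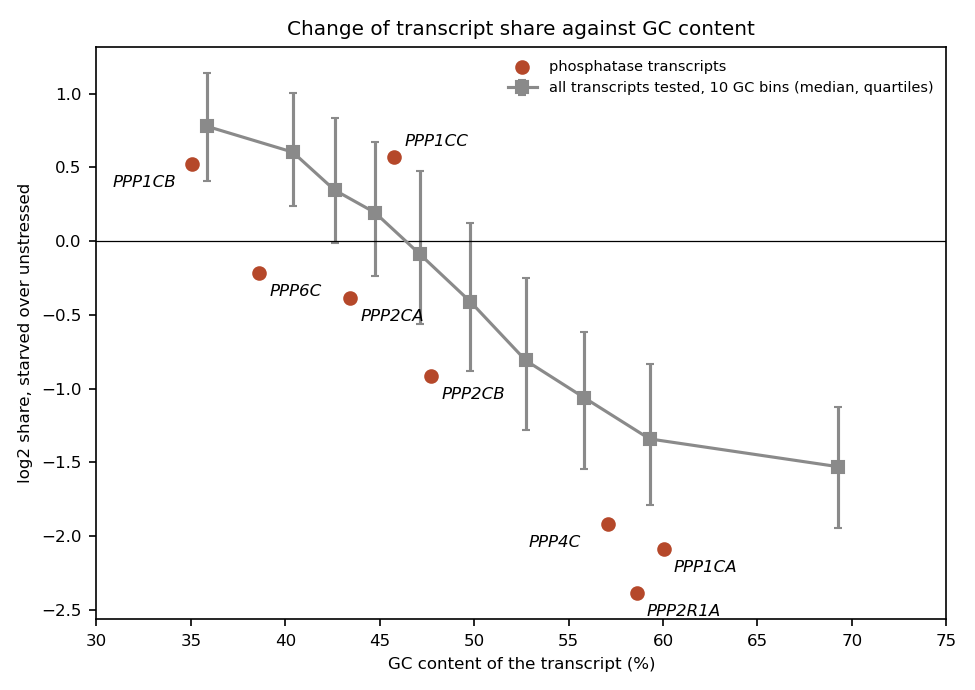
Log2 ratio of transcript share, starved over unstressed (y axis), by GC content of the transcript (x axis, %). Grey squares are the medians of 10 GC bins of the 4313 transcripts at the middle of their GC range, with quartiles as bars. Red points are the phosphatase transcripts, of which only PPP1CC lies above the median of its GC bin and PPP2R1A lies lowest at -2.39. The thin horizontal line marks no change, and PPP1CC and PPP1CB lie above it.

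The positions of the stops along the transcript were compared next. In RNA modified in cells, the listed stops of all 8 transcripts lay more in the 3′ UTR than in RNA modified in vitro in K+, as they did in 92.9% (unstressed) and 96.6% (starved) of the 4173 coding transcripts tested. In PPP2R1A the 3′ UTR held 22.1% of the stops in vitro, 48.7% in unstressed and 54.8% in starved cells. In PPP1CB it held 76.5%, 95.1% and 94.4%, and in PPP1CC 26.1%, 45.2% and 50.5%. PPP1CA (28.9%, 48.7% and 52.0%) and PPP2CA (50.1%, 71.0% and 72.7%) behaved alike.

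From unstressed to starved cells the 3′ UTR share was higher in 6 of 8 transcripts, beside 50.3% of all. Among these the intervals overlapped for PPP1CA (47.2 to 50.1 and 49.4 to 54.7) and PPP2CA (69.7 to 72.3 and 71.6 to 73.9). The largest steps were in PPP4C, from 40.4% (interval 38.2 to 42.5) to 56.9% (52.7 to 61.0), and PPP2CB, from 59.7% (57.8 to 61.7) to 74.8% (72.9 to 76.6). PPP6C went the other way, from 72.0% (68.6 to 75.1) to 62.5% (59.5 to 65.3), and PPP1CB was nearly level. Since counts under 3 were not listed, a thinly covered region loses more of its stops from this measure. The 5′ UTR held 0 of 1351 listed stops of PPP1CA in starved cells, 0 of 2035 of PPP2CB and 0 of 788 of PPP2R1A, compared to 30 of 4718, 15 of 2467 and 0 of 4272 in unstressed cells.

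The share of stops at A and C measures the modification by DMS. Without DMS it was 45.4% to 52.9% in these transcripts, in vitro 71.4% to 78.9% and in unstressed cells 78.6% (PPP4C) to 85.2% (PPP2CA). In starved cells it was 65.4% (PPP4C) to 76.6% (PPP2CA). The difference, starved minus unstressed, was below 0 in all 8, from -7.80 (PPP1CB) to -15.0 (PPP2R1A) percentage points, as it was in 99.8% of all transcripts. The median change was -8.94 points over the 8 and -10.1 over all. PPP2R1A and PPP4C (-13.2 points) had the largest differences, and PPP1CA, whose share ratio lay between theirs, had -9.30 points.

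The share of stops at G was in turn higher in starved cells in all 8 transcripts, beside 99.8% of all, for example from 14.0% to 24.7% in PPP2R1A and from 7.65% to 13.5% in PPP1CB. Among the stops at U and G alone, which leaves out the bases at which DMS stops RT on the pairing face, G was higher in starved cells in 3 of 8 transcripts, beside 45.2% of all. PPP1CB had 47.1% in unstressed and 56.0% in starved cells, at percentile 92.1 of all transcripts, and the other 7 differed by between -1.96 (PPP4C) and 1.69 (PPP6C) points.

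**Figure D4:**
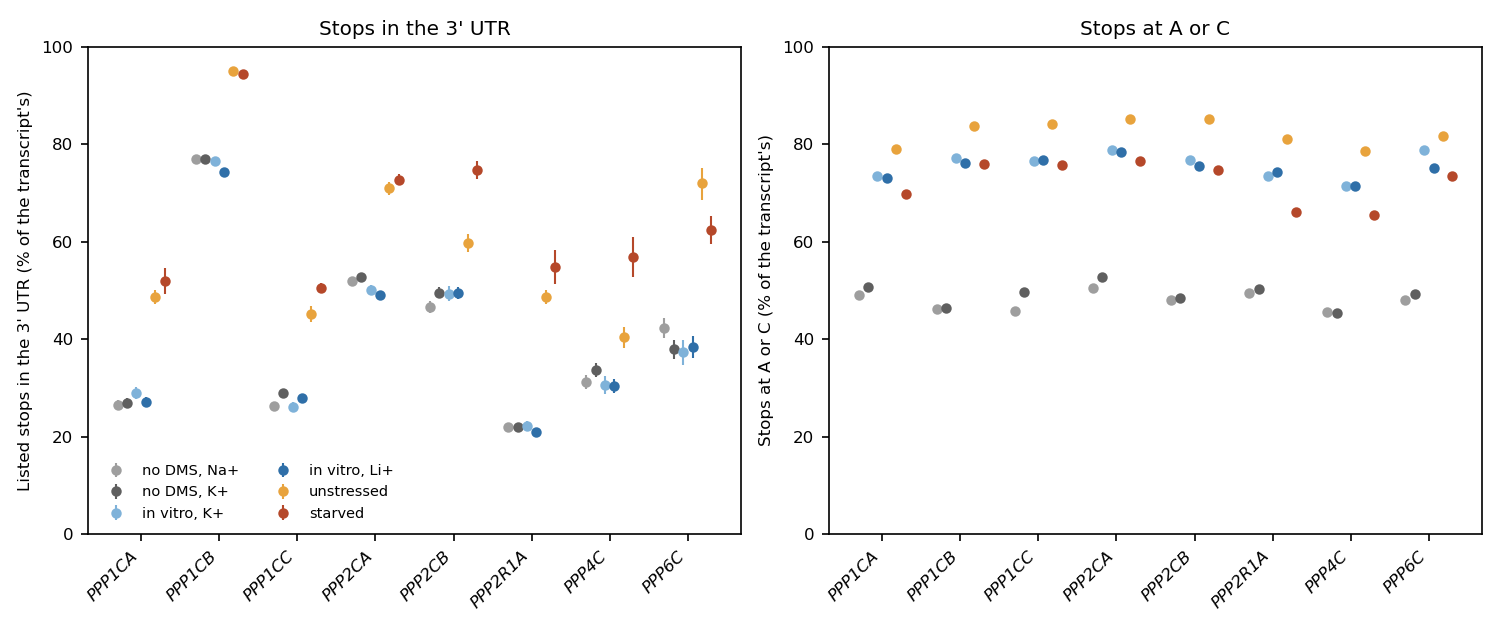
Left, share of the listed stops of each transcript that lie in the 3′ UTR (y axis, %, bars are 95% Wilson intervals) and right, share of its stops at A or C (y axis, %), by transcript (x axis) and library (colour). On the left both in vivo libraries lie above the others in every transcript, and on the right in every transcript the starved cells lie below the unstressed cells, for which PPP4C has the lowest value (78.6%).

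The strongest single stop of these transcripts relative to its library was not at G. It was a U in the 3′ UTR of PPP1CB, 1220 nt after the stop codon, beyond the end of the matched GENCODE transcript, and was picked for its value. It had 40 and 53 counts in the libraries labelled Na+ and K+ (E 10.7 and 12.9), 14 and 25 in vitro in K+ and Li+ (E 5.33 and 6.75), 107 in unstressed cells (E 78.3) and 68 in starved cells (E 21.0). It was thus present in all 6 libraries and highest in unstressed cells, where it held 2.10% of the listed stops of PPP1CB, compared to 0.129% to 0.493% in the others. A stop at U with an E of at least 10 was found in 439 of 4313 transcripts in unstressed cells.

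The regulators and relatives of these enzymes were taken from a list of 49 genes, of which 48 were matched and 33 had a mean of at least 0.25 in both in vivo libraries. Of these 33, 3 had a share at least 1.5-fold higher in starved cells and 14 at least 1.5-fold lower, beside the same 22.0% and 39.6% of all transcripts, and their median log2 ratio was -0.43. The highest ratios were those of CIP2A (2.28), an inhibitor of PP2A, PPP4R2 (1.76), a regulatory subunit of PP4, and PPP2R5C (1.53), a B56 subunit of PP2A. Relative to the median of their GC bins these were 0.41, 0.22 and 0.27 higher on the log2 scale, each less than 1.5-fold. The lowest were those of PTPA (0.21), the PP2A activator, PPME1 (0.22), which removes the methyl group from the PP2A catalytic subunit, and STRN4 (0.25), a striatin subunit of PP2A. Beside their bins PTPA was 0.91 and PPME1 1.40 lower on the log2 scale, and STRN4 was 0.46 lower, less than 1.5-fold. By this measure 3 of the 33 genes were at least 1.5-fold higher and 7 at least 1.5-fold lower, beside 20.0% and 17.3% of all transcripts. The highest was then IGBP1 (0.86 above its bin), which binds the PP2A catalytic subunit, and the lowest PPP2R2A (1.51 below), a B subunit of PP2A, both picked for their values. The shares of PTPA were 301.9 RPM in unstressed and 63.6 in starved cells, near those of the scaffold PPP2R1A.

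In the pair without DMS, 16 of the 28 genes of this list that met the minimum (57.1%) held 25 regions of stops at G stronger in the library labelled Na+, beside 37.9% of all transcripts tested. Of these 25, 5 (20.0%) lay in 5′ UTRs, beside 13.8% of all regions. The 5 were in PPP2R5C, PPP1R11 and PPP1R14B (inhibitory subunits of PP1), TIPRL and PTPA. PPP1R14B had 432 stops against 37, TIPRL 117 against 5 and PTPA 128 against 3. CIP2A had the highest E of the list, 262.5 against 7.43, in its 3′ UTR.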

How the data were processed

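RT-stop counts of the 6 libraries of U2OS RNA were analysed. The authors removed duplicate reads, mapped the rest with Bowtie to an hg19 transcriptome at unique positions and deposited the count of each nucleotide with at least 3 stops. They also deposited its ratio to a mean count, which in the files is the mean over the same base (100% of nucleotides within 0.01 plus 1 percent). Transcript totals were therefore calculated as base mean times number of nucleotides, summed over the 4 bases. Listed bases gave a match to GENCODE release 44 on GRCh37 (97% identity or more) for 10595 transcripts out of 11031 with 15 or more such bases. Shares have exact binomial (ratios) or Wilson intervals. The members, lists and thresholds were chosen with earlier results of these data known. Described were all members, each of their G regions, the 2 stops on each side of the threshold, and of the related genes the 3 highest and 3 lowest ratios. Functions were checked on simulated data. Calculations were done in Python 3.11.15 with scipy 1.17.1, pandas 2.3.3 and numpy 2.4.6.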

Additional observations from a re-analysis of the deposited data

How the results depend on the processing

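No paired analysis was possible because there was 1 library for each condition, and for the same reason no replicate could be left out. The 4 transcripts with a lower share in starved cells became 3 to 5 under 5 alternatives, and 6 relative to the median of the same GC bin, beside 17.3% of all transcripts. None of the 8 was 1.5-fold higher, but 2 were (PPP1CB and PPP1CC) when ratios were divided by the median of all transcripts or when a smaller fold was required. The related genes past the fold in either direction were 17, 10 relative to the median of the same GC bin and 23 over listed stops only. These alternatives for the related genes, and the GC bins for the 8 transcripts, were chosen after seeing the data. The 4 regions stronger in the library labelled Na+ became 7 at an E of 5, and between 3 and 6 under the other alternatives. In the opposite direction, 0 became 5 at an E of 5 and 2 at a transcript mean of 0.25. The median in vitro log2 ratio stayed above 0 (0.33 to 1.44). The in vivo one rests on the PPP1CC stop at the start codon, with a count of fewer than 3 in unstressed cells taken as 0 (1.70, beside 1.57 over 1041 regions). Under the alternatives it ranged from 0.12 to 2.68. The highest value came at an E of 5, where a PPP2R1A stop with 3 counts in starved cells and fewer than 3 in unstressed cells also entered. The in vivo median gives no direction for the PPP1CC stop, and had no value when a stop had to be listed in both libraries. The change of the share at A and C was -11.4 points over listed stops of the coding sequence. At the 4 stops the in vivo counts were under 3, the lowest count listed, except for PPP1CC at the start codon in starved cells (7).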
